A study of Schizosaccharomyces pombe with 9 samples.

Results

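The genes described here are 9 of the 6986 identifiers in a count table of the fission yeast Schizosaccharomyces pombe, picked by name: the telomeric helicase genes tlh1 and tlh2, and 7 genes of transcriptional silencing (clr4, swi6, clr3, sir2, ago1, dcr1 and epe1). Polyadenylated RNA was sequenced from vegetative, log-phase cultures in YES medium at 30 °C. There were 3 groups of 3 libraries: a strain with aps1 deleted (replicates 1, 2 and 3), a strain carrying the asp1-D333A allele (replicates 1, 2 and 3) and wild type (WT, replicates 4, 5 and 6). Each group was 1 strain, and no further alleles, markers or mating types are given in the sources used here. Aps1 breaks down inositol pyrophosphates, and the asp1-D333A change falls in the kinase domain of Asp1, an enzyme that makes them. The series asks how these signalling molecules affect phosphate genes and the ending of transcription.

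The ends of fission yeast chromosomes are packed into heterochromatin, a closed form of chromatin marked by methylation of histone H3 on lysine 9. Clr4 writes this mark, Swi6 (the HP1 protein) binds it, and the histone deacetylases Clr3 and Sir2 keep the chromatin free of acetyl groups. Dcr1 (Dicer) and Ago1 (Argonaute) work in RNA interference, which guides Clr4 to repeated sequences, while the JmjC protein Epe1 acts against heterochromatin. The genes tlh1 and tlh2 encode RecQ type DNA helicases, lie at chromosome ends, and are known as genes that heterochromatin keeps silent.

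The total count was 18244492 to 22999732 per library, and values are given as counts or as CPM (counts-per-million, with library sizes scaled by the TMM method). The aps1 gene stood at 7.60 to 11.4 CPM in the aps1 deletion libraries and at 129 to 147 CPM in WT libraries, the direction that the labels require. It still had 137 to 224 counts per aps1 deletion library, and the source of these reads was not tested. The asp1-D333A label was not checked, as counts per gene do not show the allele. No pair of libraries of a strain agreed within sampling noise. The library farthest from its group was asp1-D333A replicate 3, whose chi-square statistic per gene was 61.7 and 74.7 against the other asp1-D333A replicates, which had 6.45 between them. These statistics are means over genes, with expected counts set by the total counts alone, without TMM. The design text speaks of replicate experiments without saying whether each was its own culture, so p-values measure the spread between these libraries, which may be technical. In bulk RNA, fewer cells expressing a gene and less RNA per cell cannot be told apart.

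The helicase genes had the widest range of the 9 genes. By the edgeR fit on scaled libraries, their summed level rose 20.7-fold in asp1-D333A. The summed count was 8 or less per library in the aps1 deletion, below a level that was already low in WT. Because tlh1 (SPAC212.11, chromosome I) and tlh2 (SPBCPT2R1.08c, chromosome II) differ at 1 of 5662 aligned nucleotides in assembly ASM294v3, reads cannot be assigned to either with certainty, and their sum is the firmer value. The sum was 8, 3 and 7 counts in aps1 deletion replicates 1, 2 and 3, 1020, 837 and 1027 counts in asp1-D333A replicates 1, 2 and 3, and 26, 68 and 17 counts in WT replicates 4, 5 and 6. All aps1 deletion libraries lay below, and all asp1-D333A libraries above, every WT library, and WT replicate 5 was the highest of its group. The means were 0.317 ± 0.131 CPM in the aps1 deletion, 40.5 ± 5.98 CPM in asp1-D333A and 1.93 ± 1.36 CPM in WT (SD, n = 3 each).

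**Figure D1:**
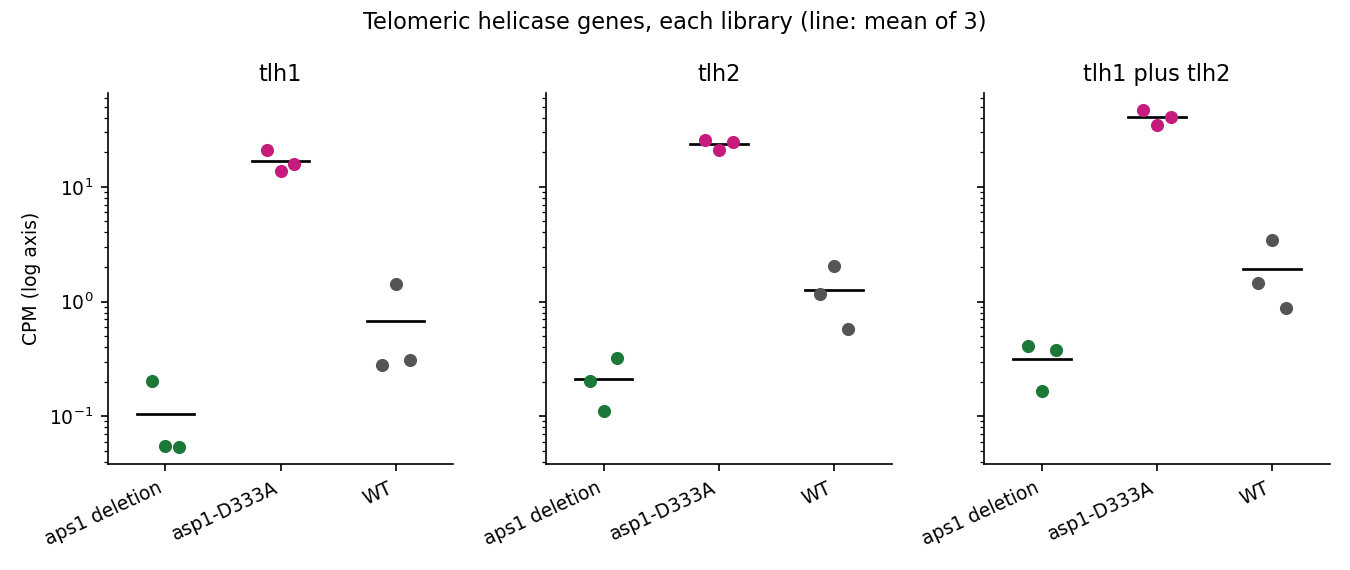
CPM (log axis) of tlh1, tlh2 and their sum in each library of the aps1 deletion, asp1-D333A and WT, with the mean of 3 libraries as a line. The 3 groups do not overlap for either gene or the sum, and WT replicate 5 is the highest WT library in all panels.

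In asp1-D333A the sum stood 4.37 above WT on the log2 scale (SE 0.32), and 1 SE to either side gives 16.6-fold and 25.8-fold. Tested by edgeR (quasi-likelihood F test, Benjamini-Hochberg adjustment over the 6146 genes of a table holding the sum), its adjusted p was 1.6e-06. An adjusted p under 0.05 was reached by 61.1% of those genes, and the sum ranked 9 by absolute change. Without WT replicate 5 the rise was 5.14 on that scale (SE 0.24). In the aps1 deletion the sum fell by 2.58 on the log2 scale (SE 0.60, adjusted p 0.017), where 16.5% of genes passed. Without WT replicate 5 it was -1.82 (adjusted p 0.016). The call was lost without aps1 deletion replicate 2 (log2 fold change -2.29, adjusted p 0.071) and without replicate 3 (-2.72, adjusted p 0.063). Over all alternatives the adjusted p of this fall ran from 0.00051 to 0.071.

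Each helicase gene had the same order of groups as the sum, although the difference of tlh1 between the aps1 deletion and WT was not called. There were 4, 1 and 1 tlh1 counts in the aps1 deletion, 457, 331 and 399 counts in asp1-D333A, and 5, 28 and 6 in WT. It passed the filter on low counts through asp1-D333A, the group where it is high, and reached the filter's level in 0 of 3 aps1 deletion libraries and 1 of 3 WT libraries. The counts of tlh2 were 4, 2 and 6 in the aps1 deletion, 563, 506 and 628 counts in asp1-D333A, and 21, 40 and 11 in WT. Both genes separated the groups without overlap. For tlh1 the log2 fold change was -2.61 (SE 0.84, adjusted p 0.057) in the aps1 deletion and 4.60 (SE 0.41, adjusted p 3.1e-06) in asp1-D333A. That of tlh2 was -2.53 (SE 0.51, adjusted p 0.0052) in the aps1 deletion and 4.22 (SE 0.27, adjusted p 8.7e-08) in asp1-D333A (edgeR, as for the sum). Without WT replicate 5 the log2 fold changes in asp1-D333A were 5.81 for tlh1 and 4.79 for tlh2, and those in the aps1 deletion were -1.41 for tlh1 and -1.97 for tlh2.

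Compared directly, the mutants stood further apart at these genes than at any other gene tested. The log2 fold change of the aps1 deletion over asp1-D333A was -6.95 for the sum (SE 0.42, adjusted p 2.4e-07), the largest absolute value among the 6146 genes, -7.21 for tlh1 (SE 0.54) and -6.76 for tlh2 (SE 0.35). With 8 counts or fewer per aps1 deletion library, the size of these ratios rests on few reads. Without aps1 deletion replicate 1, which held 4 of the 6 tlh1 reads of that strain, tlh1 was at -8.10 between the mutants and at -3.50 in the aps1 deletion against WT (adjusted p 0.068). Both mutants were set against the same WT libraries, and their values against WT are given side by side for that reason.

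The share of the summed reads assigned to tlh1 was followed because the 2 copies are almost the same sequence. Over the group it was 33.3% in the aps1 deletion (6 of 18 reads, 95% Wilson interval 16.3% to 56.3%), 41.2% in asp1-D333A (1187 of 2884 reads, 39.4% to 43.0%) and 35.1% in WT (39 of 111 reads, 26.9% to 44.4%). These intervals cover counting error only, since reads are not independent molecules, and those of the 3 groups overlap. Within asp1-D333A the share was 44.8%, 39.5% and 38.9% in replicates 1, 2 and 3. The annotated length of tlh1 is 48.5% of the summed length, as tlh2 is annotated 353 nucleotides longer. The group interval of the aps1 deletion includes that share of length, and those of asp1-D333A and WT lie below it. Length is a fair reference only if reads over the whole of both genes were counted, which is not given.

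Most features around the helicase genes had few reads in any strain. Of the 10 listed features nearest to tlh1, 6 had at most 3 counts in every library, and the same number was found for the 10 nearest to tlh2. Over all 10, reads near tlh1 came to 123 in the aps1 deletion, 201 in asp1-D333A and 90 in WT. For tlh2 the 10 neighbours held 519 reads in the aps1 deletion, 443 in asp1-D333A and 475 in WT. Of the 20 features, 4 passed the filter, and by edgeR 0 were called in the aps1 deletion (lowest adjusted p 0.20), where 16.6% of all 6147 genes were, and 2 in asp1-D333A, where 61.1% were.

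Among neighbours past the filter, only SPAC212.06c was called higher in asp1-D333A, as tlh1 and tlh2 were. Over 474 nucleotides it matches both helicase genes at 99.4% identity, so reads cannot be told apart there. It had 13, 11 and 9 counts in the aps1 deletion, 45, 23 and 39 counts in asp1-D333A, and 9, 10 and 7 in WT. The asp1-D333A libraries lay above all others, at a log2 fold change against WT of 1.70 (SE 0.36, adjusted p 0.0011), and in the aps1 deletion it was 0.35 (SE 0.41, adjusted p 0.60). SPBPB2B2.19c, the ninth feature from tlh2, fell by 0.85 on the log2 scale in asp1-D333A (SE 0.21, adjusted p 0.0036). SPAC212.12 was at -1.22 on that scale and was not called (SE 0.54, adjusted p 0.064). The antisense RNAs SPNCRNA.2001 and SPNCRNA.2002, listed opposite tlh1, had 0 counts in all 9 libraries. Their whole lengths also match tlh2, so their reads could have been lost, and 0 counts do not show that these RNAs were absent. A further 4 features listed opposite tlh1, and 7 opposite tlh2, are not in the count table.

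In contrast to the helicase genes, the silencing genes had at least 292 counts in every library and changed by less than 2-fold against WT. Of the 7, 2 rose in the aps1 deletion (clr4 and epe1), and 5 fell in asp1-D333A (clr4, clr3, ago1, dcr1 and epe1), while swi6 and sir2 were called in neither. With the helicase genes, 3 of the 9 genes were called in the aps1 deletion, where 16.6% of all genes were, and 7 of the 9 in asp1-D333A, where 61.1% of all genes were. The median log2 fold change of the 7 silencing genes was 0.05 in the aps1 deletion, beside -0.01 over all genes, and -0.48 in asp1-D333A (0.01 over all genes). By direction, the aps1 deletion had 6.73% of all genes called higher and 9.83% called lower, and asp1-D333A had 30.3% higher and 30.8% lower. Libraries of the aps1 deletion lay wholly above WT for 2 of the 9 genes (19.5% of all genes), wholly below for 2 (19.7%) and so did not overlap for 4 (39.2%). Those of asp1-D333A lay wholly above for 2 (32% of all genes), wholly below for 5 (33.7%) and did not overlap for 7 (65.7%). Counts over the 9 genes, here and below, hold tlh1 and tlh2 separately, although their reads cannot be assigned to either with certainty.

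**Figure D2:**
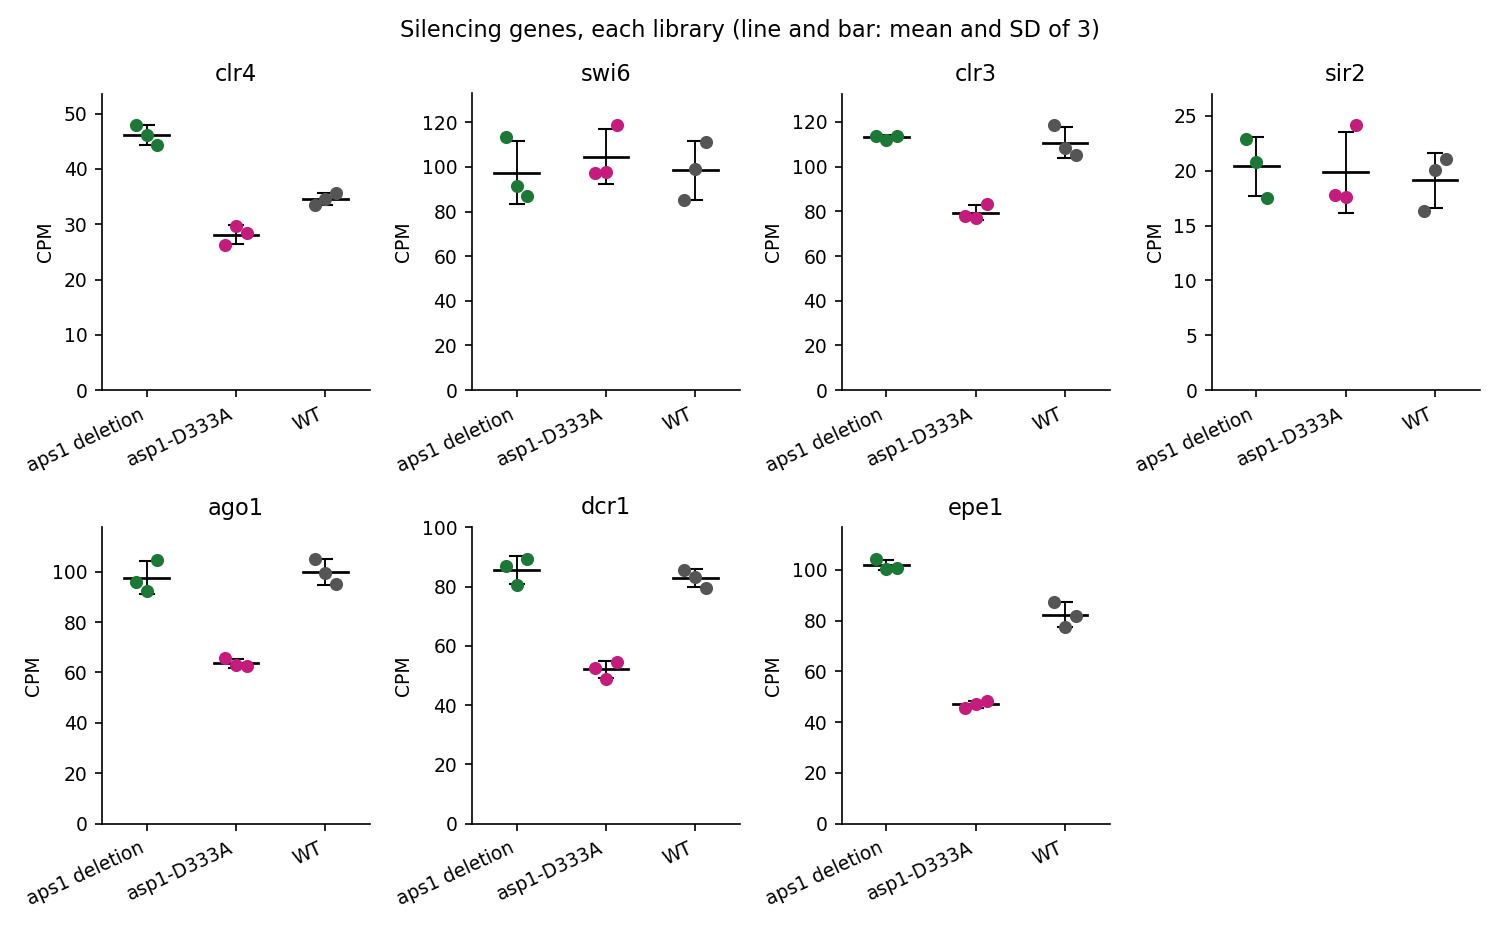
CPM of the 7 silencing genes in each library (points), with the mean and SD of 3 libraries, in the aps1 deletion, asp1-D333A and WT. The asp1-D333A libraries lie below all WT libraries for clr4, clr3, ago1, dcr1 and epe1, and overlap them for swi6 and sir2, whose highest value is asp1-D333A replicate 3.

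Among the enzymes that write the silent state, clr4 (SPBC428.08c, chromosome II), the methyltransferase gene, moved in both mutants. Its level was 47.9, 46.1 and 44.3 CPM in the aps1 deletion, 26.2, 29.7 and 28.4 CPM in asp1-D333A, and 33.5, 34.5 and 35.6 CPM in WT. The 3 groups did not overlap, with the aps1 deletion highest and asp1-D333A lowest. Relative to WT, clr4 rose by 0.42 on the log2 scale in the aps1 deletion (SE 0.08, adjusted p 0.0043) and fell by 0.30 in asp1-D333A (SE 0.08, adjusted p 0.0069). The fall was not called with upper-quartile scaling (-0.13, adjusted p 0.20) or with total counts only (-0.16, adjusted p 0.16), settings that moved the median of all genes in this comparison to 0.18 and 0.14. Its annotation overlaps meu6, a gene named for its rise in meiosis, by 2393 nucleotides on the opposite strand, and meu6 had between 6.86% and 27.3% of the clr4 count. In the aps1 deletion meu6 fell (4.28 ± 0.978 CPM in the aps1 deletion and 8.48 ± 0.485 in WT, SD, n = 3 each, log2 fold change -0.98, adjusted p 0.0015). In asp1-D333A, where clr4 fell, meu6 was also on the lower side and was not called (-0.30, adjusted p 0.11 by edgeR). A relation between the overlapping genes was not tested.

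The deacetylase gene clr3 (SPBC800.03, chromosome II) was at 114, 112 and 114 CPM in the aps1 deletion, 77.8, 77.1 and 83.2 CPM in asp1-D333A, and 118, 108 and 105 CPM in WT. The asp1-D333A libraries were below all others, and those of the aps1 deletion lay within the range of WT. It fell by 0.48 on the log2 scale in asp1-D333A (SE 0.07, adjusted p 3.8e-05), and the aps1 deletion differed from WT by 0.03 (SE 0.07, adjusted p 0.78). The antisense RNA SPNCRNA.1331, listed opposite the whole gene, had between 0.347% and 2.31% of the clr3 count. Whether counting used strand is not given. Although the whole of clr3 is overlapped, clr3 had 1708 to 2242 counts per library and SPNCRNA.1331 had 7 to 49. If the annotation used for counting had the same extents, the strands were counted apart here. This was not tested at the other overlaps.

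For sir2 (SPBC16D10.07c, chromosome II), which encodes an NAD-dependent deacetylase, the groups overlapped. The values were 22.9, 20.8 and 17.5 CPM in the aps1 deletion, 17.8, 17.6 and 24.1 CPM in asp1-D333A, and 16.3, 20.1 and 21.1 CPM in WT. On the log2 scale the aps1 deletion differed from WT by 0.09 (SE 0.15, adjusted p 0.71) and asp1-D333A by 0.05 (SE 0.15, adjusted p 0.76). Without asp1-D333A replicate 3, which held the highest value, asp1-D333A differed by -0.11 (SE 0.13). Its end overlaps that of the abundant zinc transporter gene zrt1 by 114 nucleotides on the opposite strand, and zrt1 had between 557% and 2458% of the sir2 count.

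The gene of the mark's reader, swi6 (SPAC664.01c, chromosome I), also showed overlapping groups. It stood at 113, 91.6 and 87.1 CPM in the aps1 deletion, 97.2, 97.8 and 119 CPM in asp1-D333A, and 85.1, 99.0 and 111 CPM in WT. Its difference from WT was -0.02 on the log2 scale in the aps1 deletion (SE 0.12, adjusted p 0.95) and 0.09 in asp1-D333A (SE 0.12, adjusted p 0.55), or -0.02 without asp1-D333A replicate 3. Within each strain swi6 and sir2 spread more than the other silencing genes. Their coefficients of variation ran from 11.7% to 18.7%, while those of clr4, clr3, ago1, dcr1 and epe1 ran from 0.985% to 6.64%.

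Both genes of RNA interference fell in asp1-D333A and were not called in the aps1 deletion. The level of ago1 (SPCC736.11, chromosome III) was 95.8, 92.3 and 105 CPM in the aps1 deletion, 65.6, 63.0 and 62.5 CPM in asp1-D333A, and 105, 99.6 and 95.1 CPM in WT. That of dcr1 (SPCC188.13c, chromosome III) was 87.0, 80.4 and 89.4 CPM in the aps1 deletion, 52.6, 48.9 and 54.7 CPM in asp1-D333A, and 85.7, 83.1 and 79.6 CPM in WT. For both, the asp1-D333A libraries were below all others and the aps1 deletion overlapped WT. The log2 fold changes in asp1-D333A were -0.65 (SE 0.07, adjusted p 5.5e-06) for ago1 and -0.67 (SE 0.07, adjusted p 5.9e-06) for dcr1. They were -0.03 (SE 0.07, adjusted p 0.79) for ago1 and 0.05 (SE 0.07, adjusted p 0.71) for dcr1 in the aps1 deletion. The meiotic septin gene spn6 overlaps dcr1 by 1903 nucleotides on the opposite strand and held between 0.622% and 2.81% of its count. With 9 to 44 counts per library, spn6 was called lower in the aps1 deletion (log2 fold change -1.39, SE 0.36, adjusted p 0.019 by edgeR), where dcr1 was not called. In asp1-D333A, where dcr1 fell, spn6 was at -0.74 and not called (SE 0.33, adjusted p 0.067).

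The antagonist gene epe1 (SPCC622.16c, chromosome III) changed in both mutants and had the largest fall of the 7 in asp1-D333A. It was at 104, 100.5 and 101 CPM in the aps1 deletion, 45.7, 47.3 and 48.3 CPM in asp1-D333A, and 87.3, 77.5 and 82.0 CPM in WT. As with clr4, the aps1 deletion was highest, asp1-D333A lowest, and no groups overlapped. Against WT it rose by 0.31 on the log2 scale in the aps1 deletion (SE 0.07, adjusted p 0.0087) and fell by 0.80 in asp1-D333A (SE 0.07, adjusted p 7.3e-07). With total counts only, the rise in the aps1 deletion was 0.25 and not called (adjusted p 0.054, with 0.0003 to 0.054 over the alternatives). The RNA SPNCRNA.67, listed inside epe1 on the opposite strand, was at 8.64 ± 0.825 CPM in the aps1 deletion, 10.3 ± 2.30 in asp1-D333A and 9.25 ± 0.663 in WT (SD, n = 3 each), or between 8.07% and 26.5% of the epe1 count. It was called in neither mutant, at adjusted p 0.73 for the aps1 deletion and 0.43 for asp1-D333A.

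**Figure D3:**
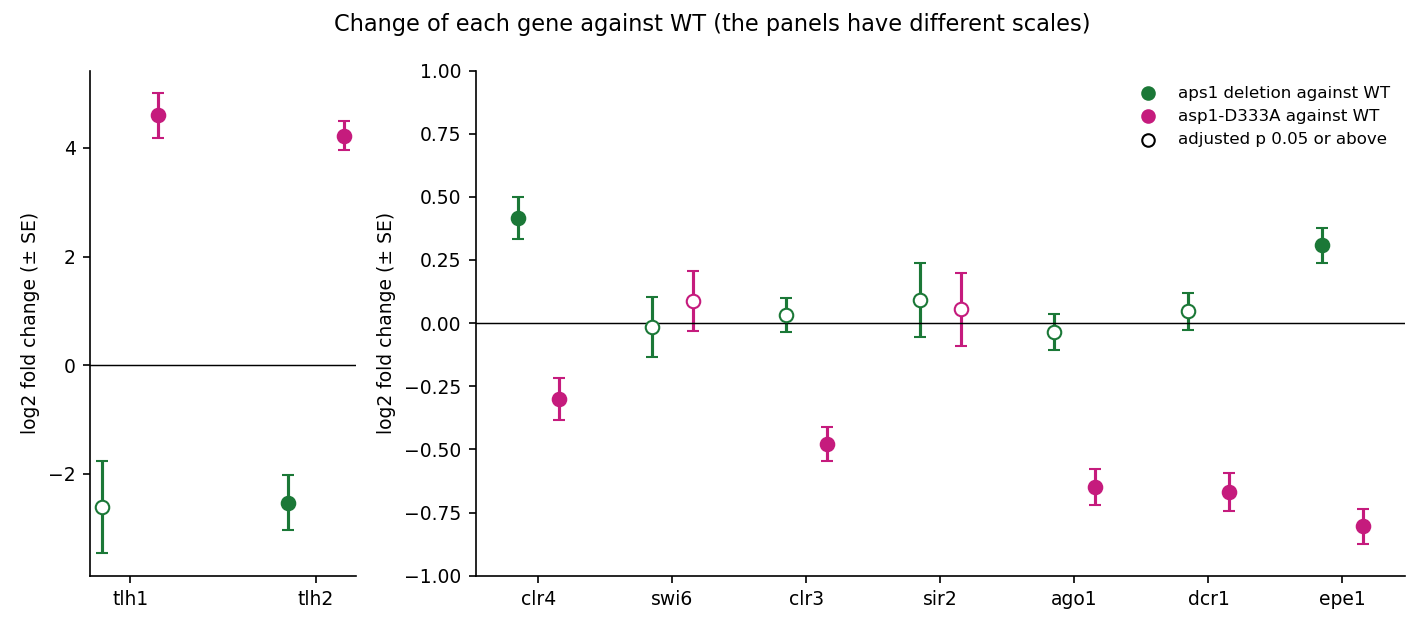
Log2 fold change against WT (± SE) of each gene in the aps1 deletion and asp1-D333A from the fit on 9 libraries, helicase genes at left on a wider scale and silencing genes at right; open points had an adjusted p of 0.05 or above. In asp1-D333A tlh1 and tlh2 are above 4 and 5 silencing genes are between -0.80 and -0.30, while in the aps1 deletion tlh2 is at -2.53 and clr4 and epe1 are at 0.42 and 0.31.

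Set directly against each other, the aps1 deletion exceeded asp1-D333A at all 5 of these silencing genes. The log2 fold change of the aps1 deletion over asp1-D333A was 1.11 for epe1 (SE 0.07, adjusted p 2.6e-08), 0.72 for dcr1 (SE 0.07), 0.71 for clr4 (SE 0.08), 0.62 for ago1 (SE 0.07) and 0.51 for clr3 (SE 0.07), the last with an adjusted p of 1.4e-05. It was -0.10 (SE 0.12, adjusted p 0.46) for swi6 and 0.04 (SE 0.15, adjusted p 0.83) for sir2. Of the 9 genes 7 were called, where 68.8% of all genes were, 5 higher (33.9% of all) and 2 lower (34.9% of all). The same 5 lay wholly above asp1-D333A (34.3% of all genes) and the same 2 wholly below (36.2%), so that 7 did not overlap (70.5%). For swi6 the difference was called with upper-quartile scaling (-0.31, adjusted p 0.04), with adjusted p-values of 0.04 to 0.99 over the alternatives.

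Per kilobase of annotated exon, the order of the levels within WT was swi6 at 58.2 ± 7.75 CPM per kb, clr3 at 45.1 ± 2.86, ago1 at 38.1 ± 1.92, epe1 at 20.6 ± 1.23, dcr1 at 14.8 ± 0.546, sir2 at 9.63 ± 1.27, clr4 at 7.83 ± 0.239, tlh2 at 0.210 ± 0.123 and tlh1 at 0.119 ± 0.116 (SD, n = 3 each). Neighbours in this order did not overlap between libraries, except tlh2 and tlh1. In asp1-D333A swi6 remained first at 61.8 ± 7.23 CPM per kb and clr4 had 6.36 ± 0.394, while tlh2 reached 3.95 ± 0.424 and tlh1 2.95 ± 0.651. Every asp1-D333A library there had less tlh2 and tlh1 than clr4 per kilobase. Reads that match both helicase copies could be lost, so the place of tlh1 and tlh2 beside the other genes is uncertain. Lengths came from an annotation of ASM294v3, and the extents used for counting are not given. The place of any gene in this order therefore depends on its annotated length. The lowest values were those of the aps1 deletion, 0.0354 ± 0.0178 CPM per kb for tlh2 and 0.0184 ± 0.0151 for tlh1, and their libraries overlapped.

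The wider machinery was then surveyed with 44 further genes of silencing complexes, telomere proteins and the nuclear envelope. In the aps1 deletion 3 of the 44 were called (6.8%, against 16.6% of all genes), 2 higher and 1 lower. In asp1-D333A 19 of the 44 were called (43.2%, against 61.1% of all genes), 10 higher and 9 lower. Between the mutants 23 of the 44 were called (52.3%, against 68.8% of all genes), 13 higher and 10 lower in the aps1 deletion. The median log2 fold change of the list was 0.03 in each mutant against WT, and that of all genes is given above.

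**Figure D4:**
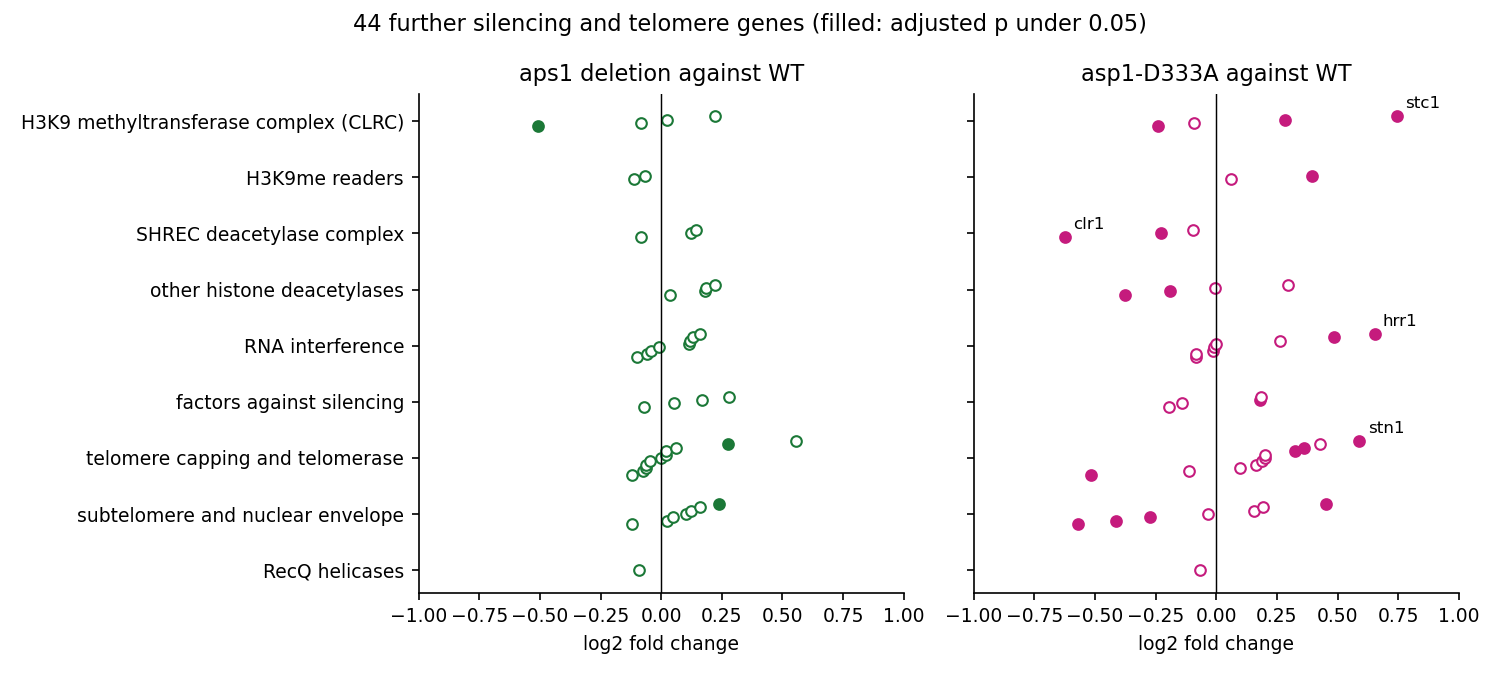
Log2 fold change against WT of 44 further silencing and telomere genes, by list, in the aps1 deletion and asp1-D333A; filled points had an adjusted p under 0.05, and those changed at least 1.5-fold are named. In the aps1 deletion 3 points are filled and none is named, and in asp1-D333A 19 are filled, with stc1, hrr1 and stn1 on the higher side and clr1 on the lower side.

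Of the 4 partners of Clr4 in its complex or linked to it, 2 rose and 1 fell in asp1-D333A, where 30.3% of all genes were called higher and 30.8% lower. The gene stc1, whose product links RNA interference to the Clr4 complex, was at 6.24 ± 0.269 CPM in the aps1 deletion, 14.9 ± 1.71 in asp1-D333A and 8.88 ± 0.348 in WT (SD, n = 3 each). Relative to WT it fell by 0.51 on the log2 scale in the aps1 deletion (SE 0.12, adjusted p 0.015) and rose by 0.75 in asp1-D333A (SE 0.12, adjusted p 0.00011), each the opposite of the direction of clr4. Its fall was no longer called without aps1 deletion replicate 2 (-0.49, adjusted p 0.061), aps1 deletion replicate 3 (-0.49, adjusted p 0.054) or WT replicate 6 (-0.48, adjusted p 0.052), and its adjusted p ran from 0.0073 to 0.061 over the alternatives. Of the 3 partners of Clr3 in the SHREC complex, 2 were called lower in asp1-D333A (clr1 and mit1), against 30.8% of all genes, and clr2 was not called. For clr1, a zinc finger subunit, the level was 37.4 ± 5.43 CPM in asp1-D333A and 57.7 ± 0.488 in WT (SD, n = 3 each, log2 fold change -0.62, SE 0.10, adjusted p 0.00013).

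Of the 8 other genes of RNA interference, 2 rose in asp1-D333A and 6 were not called, against 61.1% of all genes called and 30.3% called higher. The larger rise was that of hrr1, a helicase gene of the RNA-directed RNA polymerase complex, at 40.8 ± 0.514 CPM in asp1-D333A and 25.9 ± 2.99 in WT (SD, n = 3 each, log2 fold change 0.65, SE 0.10, adjusted p 6.6e-05). Among 11 telomere genes, 3 rose and 1 fell in asp1-D333A, against 30.3% of all genes called higher and 30.8% called lower. The gene stn1, which encodes a capping protein, had 21.3 ± 2.77 CPM in asp1-D333A and 14.2 ± 2.03 in WT (SD, n = 3 each, log2 fold change 0.59, SE 0.14, adjusted p 0.0024). Of those 11, 1 rose in the aps1 deletion, the shelterin gene ccq1 (log2 fold change 0.27, adjusted p 0.032), and 1 of the 7 genes of the subtelomere and nuclear envelope, bqt3 (0.24, adjusted p 0.018). Neither was called without aps1 deletion replicate 2, aps1 deletion replicate 3 or WT replicate 6, fits in which 0 of the 44 genes were. Those 2, and stc1 in that strain, were named after their values were seen. The RecQ helicase gene rqh1 was called in neither mutant, at 65.3 ± 2.24 CPM in the aps1 deletion, 66.3 ± 5.03 in asp1-D333A and 69.5 ± 2.96 in WT (SD, n = 3 each).

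The genes whose profile over the 9 libraries was nearest to that of the helicase sum were found by the root mean square difference of log2 CPM after each gene was centred on its mean. Among 5598 genes with a mean of at least 50 counts, the nearest was cmt2, annotated as a catechol O-methyltransferase gene, at 0.63, where the median gene was at 2.83. It had 1.18 ± 0.384 CPM in the aps1 deletion, 59.4 ± 1.99 in asp1-D333A and 2.56 ± 0.585 in WT (SD, n = 3 each). Next were ddr48 at 0.88, the RNAs SPNCRNA.1144 at 0.93 and SPNCRNA.1255 at 1.04, and the siderophore transporter gene str3 at 1.07. Like the sum, each had its lowest mean in the aps1 deletion and its highest in asp1-D333A, which follows from how they were picked. Outside asp1-D333A, cmt2, SPNCRNA.1144, SPNCRNA.1255 and str3 had group means of at most 2.56 CPM. They reached the minimum mean count through asp1-D333A. Their log2 fold changes in the aps1 deletion lay between -2.05 for SPNCRNA.1255 and -0.84 for str3, against -2.58 for the helicase sum.

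**Figure D5:**
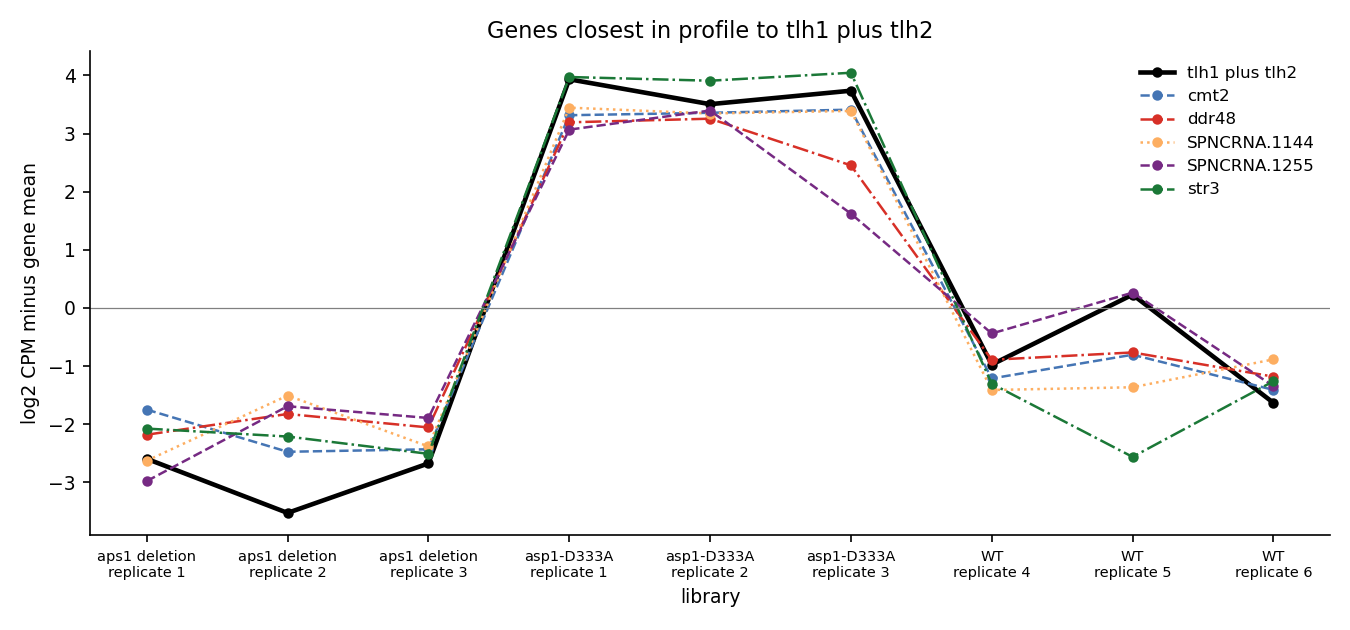
Log2 CPM minus the mean of each gene in the 9 libraries, for tlh1 plus tlh2 (black) and the 5 genes nearest to it in profile. All 6 are above their mean in the asp1-D333A libraries and below it in the aps1 deletion libraries, and among WT libraries tlh1 plus tlh2 is highest in replicate 5, where str3 is lowest.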

How the data were processed

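Whole-number read counts per feature were deposited by the authors in 1 table with a column per library, matched to samples by title. The submitters' processing notes name HISAT2 2.1.0, SAMtools, HTSeq 0.10.0, DESeq2 and the build ASM294v2. Libraries were made with a stranded kit, per the labels. Whether counting used strand and how reads matching several places were treated is not given in the sources used here, so reads of the helicase copies could be lost or split. A RefSeq annotation of ASM294v3 gave names, exon lengths, neighbours and overlaps for 6846 of 6986 identifiers. As the builds differ, no coordinates or sequences are printed. BLAST 2.17.0 listed copies that matched over 100 or more nucleotides with a minimum identity of 95%.

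Counts were tested with edgeR 4.0.16 in R 4.3.3: filterByExpr (minimum count 10, 6147 genes kept), TMM scaling, a group means model on all 9 libraries without a replicate block, and robust quasi-likelihood F tests. P-values were adjusted over all genes tested by the Benjamini-Hochberg method and called under 0.05. "Called" genes passed this threshold. The sum of tlh1 and tlh2 was tested in a table where it replaced both rows. The SE is the absolute log2 fold change divided by the square root of F. The common biological coefficient of variation was 0.0917. The procedure was also run on simulated counts. The outcome is not given here, so that run lends no weight to the values above, those of the helicase genes included.

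The genes and lists were chosen with earlier results of these data known. Named beside them were genes of the lists called and changed at least 1.5-fold (up to 3 per list and comparison), features that overlap a listed gene, the 10 features nearest to each helicase gene, and the 5 genes nearest in profile. Alternatives were RLE, upper-quartile and total-count scaling, no filter, DESeq2 1.42.0, the 6 libraries of a pair alone, leaving out each library, and a replicate block between the mutants.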

Additional observations from a re-analysis of the deposited data

How the results depend on the processing

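The number of the 9 genes called was 3 to 4 in the aps1 deletion, 6 to 7 in asp1-D333A and 7 to 8 between the mutants over all alternatives. Without 1 library it was 3 to 4 in the first comparison and 7 in the others. The further silencing and telomere genes called in the aps1 deletion numbered 3, but 5 with DESeq2, 8 in the fit on 6 libraries and 0 to 8 without 1 library, by edgeR. It was 0 without aps1 deletion replicate 2 or 3 or WT replicate 6 (7, 8 and 7 at an unadjusted p under 0.05), 1 without WT replicate 5, 8 without asp1-D333A replicate 3 and 5 without aps1 deletion replicate 1. In asp1-D333A that count was 19, with 15 to 20 without 1 library, 24 under upper-quartile scaling and 22 under total counts. Between the mutants it was 23, with 18 to 24 without 1 library, 31 under upper-quartile scaling and 26 under total counts. The log2 fold change of tlh1 plus tlh2 without 1 library ran from -2.94 to -1.82 in the aps1 deletion, from 4.02 to 5.14 in asp1-D333A and from -7.17 to -6.66 between the mutants. For tlh1 the fall in the aps1 deletion was called with total counts only (adjusted p 0.048), with DESeq2 (0.025) and in 3 fits without 1 library, and its adjusted p reached 0.22 without WT replicate 5. The cause of these shifts was not tested.

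Scaling moved the share of higher calls among all genes from 49.6% in asp1-D333A to 67.3% under upper-quartile scaling and 63.7% under total counts, from 40.7% in the aps1 deletion to 29.0% and 24.8%, and between the mutants from 49.3% to 31.5% and 33.0%. The median change over all genes between the mutants moved on the log2 scale from -0.04 to -0.25 and -0.23. All genes called in the aps1 deletion numbered 1018, 1488 in the fit on 6 libraries, and 539 when aps1 deletion replicate 2 was left out to 1668 when asp1-D333A replicate 3 was. With the replicate number of the mutants as a block, tlh1 plus tlh2 was at -6.96 and 7 of the 9 genes and 18 of the further genes were called between the mutants, against 7 and 20 in the fit on the same 6 libraries without the block. Deviations of same-numbered libraries correlated at 0.15, 0.06 and -0.13 across genes, and those of differently numbered ones at -0.23 to 0.22. Whether a shared number marks a shared batch cannot be told from these values. The block called 3855 of 6105 genes, against 4105 without it on the same libraries. Fewer than 10 reads per library in the aps1 deletion limit the helicase values there.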

Other observations

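Of 7 genes of the subtelomere and nuclear envelope, where telomeres are anchored, 1 was called higher, 3 lower and 3 were not called in asp1-D333A, where 30.3% of all genes were called higher and 30.8% lower. Those named here were picked after their values were seen. The inner nuclear membrane genes man1 and lem2 fell. The level of man1 was 60.7 ± 1.87 CPM in asp1-D333A and 90.1 ± 3.22 in WT, and that of lem2 was 126 ± 2.38 in asp1-D333A and 168 ± 10.04 in WT (SD, n = 3 each). Their log2 fold changes were -0.57 (adjusted p 1.3e-05) and -0.41 (adjusted p 8e-05). The gene called higher was bqt3, part of the anchor of telomeres to the envelope, at 302 ± 10.8 CPM in asp1-D333A and 220.2 ± 4.73 in WT (SD, n = 3 each, log2 fold change 0.45, adjusted p 3.3e-05). The telomere gene rif1, which also controls replication timing, had 151 ± 2.49 CPM in asp1-D333A and 217 ± 3.98 in WT (SD, n = 3 each, log2 fold change -0.52, adjusted p 2.3e-06). Of these 4 genes, bqt3 was called in the aps1 deletion too, although not without aps1 deletion replicate 2, aps1 deletion replicate 3 or WT replicate 6. Compared directly, the aps1 deletion exceeded asp1-D333A at man1 by 0.62 on the log2 scale (SE 0.07, adjusted p 3.9e-06).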
